A study of Mus musculus with 10 samples.

Results

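The 10 genes described here encode hormones of the anterior pituitary and proteins that mark its cell lineages: Gh, Prl, Cga, Pomc, Lhb, Fshb, Tshb, Ghrhr, Pitx1 and Tbx19. They were taken by gene symbol from a whole-brain expression study, in which 19938 genes had a probe set with 1 annotated symbol, and each of the 10 was measured by a single probe set. The study exposed C57BL/6J mice to alcohol through their mothers, which drank 10% ethanol in water, or water alone as controls, from conception until the pups were 10 days old. Only male offspring were used, their whole brains were taken at postnatal day 70, and RNA of several mice was pooled for each Affymetrix array. Experiment 1 comprised 2 ethanol and 2 control arrays of 3 mice each, and experiment 2 comprised 3 ethanol and 3 control arrays of 2 mice each. The labels describe dissection of the whole brain and do not say whether the pituitary gland, which hangs below the hypothalamus by its stalk, was kept with it or removed.

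The anterior pituitary releases its hormones into the blood under the control of hypothalamic peptides. Somatotrophs make growth hormone (Gh) and lactotrophs prolactin (Prl), a related protein. Gonadotrophs and thyrotrophs make glycoprotein hormones, each a pair of the common alpha subunit (Cga) with a specific beta subunit: Lhb for luteinizing hormone, Fshb for follicle-stimulating hormone and Tshb for thyrotropin. Corticotrophs cut adrenocorticotropin from the precursor encoded by Pomc, which neurons of the arcuate nucleus of the hypothalamus also express. Ghrhr is the receptor through which growth-hormone-releasing hormone acts on somatotrophs, Pitx1 a homeobox transcription factor of the whole gland, and Tbx19 a T-box factor of the Pomc lineage.

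The genes were chosen with their ethanol differences known, so these differences are given as descriptions and not as tests. Levels are the deposited log2 values, and a signed value is the log2 difference of ethanol from control. For every probe set the mean of the 4 arrays of experiment 1 equalled the mean of the 6 arrays of experiment 2 to within 5.83e-05 log2 units, so a level can be read only against the other arrays of its own experiment. Transcripts of whole brain were present on all 10 arrays: the neuronal Snap25 lay between 13.20 and 13.42, the myelin gene Mog between 10.77 and 11.11, the astrocytic Aqp4 between 11.03 and 11.23 and the endothelial Cldn5 between 9.18 and 9.75. Of the 13 whole-brain markers, 9 were lower with ethanol over both experiments, 3 of them (Gfap, Aqp4 and Mog) with unadjusted p-values below 0.05 in limma's fit and 0 after adjustment. Of all tested probe sets, 7.68% were lower at that unadjusted threshold, and their median difference was -0.01. Snap25 and Cldn5 were named with their values already known. Array medians ran from 6.99 to 7.05. In tissue RNA of this kind, more cells of a type and more transcript per cell cannot be told apart.

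The stretches of 250 bases before the transcription start of 4 of the genes are shown because Prl and Cga were high on the same arrays while the array signals of Lhb and Pomc differed much less. They are from RefSeq on the GRCm38.p6 assembly, whose promoter table held 7 of the 10 genes, and Gh, Ghrhr and Pitx1 had no entry. Capitals mark matches on either strand to 6 motifs: the POU1F1 core TATNCAT, the PITX site TAATCC, the NR5A1 site CAAGGTCA, the T-box site TCACACC, the cyclic AMP response element TGACGTCA and the TATA box TATAAA. Prl lies at chr13:27057320-27057569 (plus strand), Cga at chr4:34893529-34893778 (plus strand), Lhb at chr7:45420696-45420945 (plus strand) and Pomc at chr12:3954695-3954944 (plus strand).
Prl: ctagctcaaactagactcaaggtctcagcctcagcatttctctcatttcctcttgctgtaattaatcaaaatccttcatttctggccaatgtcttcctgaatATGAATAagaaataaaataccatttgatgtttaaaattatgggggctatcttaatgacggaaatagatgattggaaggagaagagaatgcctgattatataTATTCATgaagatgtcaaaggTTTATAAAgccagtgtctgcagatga
Cga: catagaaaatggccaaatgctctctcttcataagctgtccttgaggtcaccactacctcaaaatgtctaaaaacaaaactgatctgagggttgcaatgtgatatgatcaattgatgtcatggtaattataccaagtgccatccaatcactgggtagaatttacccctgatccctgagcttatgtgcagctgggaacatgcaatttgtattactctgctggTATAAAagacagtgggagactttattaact
Lhb: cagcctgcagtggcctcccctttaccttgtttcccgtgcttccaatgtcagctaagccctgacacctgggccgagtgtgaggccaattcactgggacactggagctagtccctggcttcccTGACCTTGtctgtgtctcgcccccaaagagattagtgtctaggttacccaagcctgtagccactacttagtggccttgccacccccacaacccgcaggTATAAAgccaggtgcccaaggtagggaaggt
Pomc: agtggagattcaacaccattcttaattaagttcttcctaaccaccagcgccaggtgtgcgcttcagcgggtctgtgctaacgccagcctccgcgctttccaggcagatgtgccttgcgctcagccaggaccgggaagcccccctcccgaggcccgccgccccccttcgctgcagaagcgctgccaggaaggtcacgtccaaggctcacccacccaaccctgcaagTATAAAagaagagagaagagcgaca
The Prl stretch held 2 matches to the POU1F1 core, starting 148 bases (reverse strand) and 47 bases (forward strand) before the start, and a pair of overlapping TATA boxes that start 26 and 24 bases before it. A match to the POU1F1 core was present in 7.92% of all 32851 promoter stretches of this length, and in 1 of the 7 of these genes. The NR5A1 site was present in 1.33% of all stretches and among the 7 only in Lhb, where it started 129 bases before the start on the reverse strand. The TATA box was present in 12.4% of all stretches and in 6 of the 7, Tbx19 being the exception. The PITX site (6.25% of all stretches), the T-box site (3.33%) and the cyclic AMP response element (1.55%) had no match among the 7, which says only that these letters are not in this window.

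Growth hormone and prolactin transcripts had the largest differences of all 21789 tested probe sets, and the difference lay on 3 of the 5 ethanol arrays. Gh had 12.00 and 10.70 on the experiment 1 ethanol arrays, against 6.22 and 6.40 on the matching control arrays. Its experiment 2 values were 7.75, 13.48 and 7.63 on the ethanol arrays, against 7.51, 7.15 and 9.48 on the control arrays. In experiment 1 the groups were far apart, whereas in experiment 2 ethanol replicate 2 was the highest array, control replicate 3 came next, and ethanol replicates 1 and 3 lay between that control and the other 2. Prl had 10.38 and 8.88 on the experiment 1 ethanol arrays, against 5.06 and 5.44 on the matching controls. It had 6.44, 11.67 and 6.62 on the experiment 2 ethanol arrays, against 6.54, 6.47 and 6.87 on the matching controls. Again both ethanol arrays of experiment 1 and ethanol replicate 2 of experiment 2 were high, while in experiment 2 ethanol replicate 1 lay below all controls and ethanol replicate 3 among them.

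Relative to the control mean of their experiment, these excesses were 51.6-fold and 21.0-fold for Gh and 35.0-fold and 12.4-fold for Prl on ethanol replicates 1 and 2 of experiment 1. On ethanol replicate 2 of experiment 2 they were 43.1-fold for Gh and 33.0-fold for Prl. These are folds of array signal: the experiment 1 controls of both genes, and 2 of the 3 experiment 2 controls of Prl, lay below the 95th percentile of receptor genes taken as silent in brain (6.75 to 7.04, described further on), so the fold of the transcripts cannot be read from them. On ethanol replicates 1 and 3 of experiment 2, Gh differed from the control mean by -0.30 and -0.42 log2 units and Prl by -0.18 and 0.00. The fitted difference for Gh was 5.04 ± 1.52 in experiment 1 and 1.57 ± 1.24 in experiment 2 (SE, 2 and 3 arrays per group), and for Prl it was 4.38 ± 1.29 and 1.62 ± 1.05. These standard errors come from 1 estimate of spread for the 4 groups, in which the scatter of the ethanol arrays of experiment 2 (SD 3.34 for Gh and 2.97 for Prl, n = 3) weighs far more than that of the controls of experiment 1 (SD 0.12 and 0.27, n = 2). Without ethanol replicate 2 of experiment 2 the difference in that experiment was -0.36 for Gh and -0.09 for Prl.

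**Figure D1:**
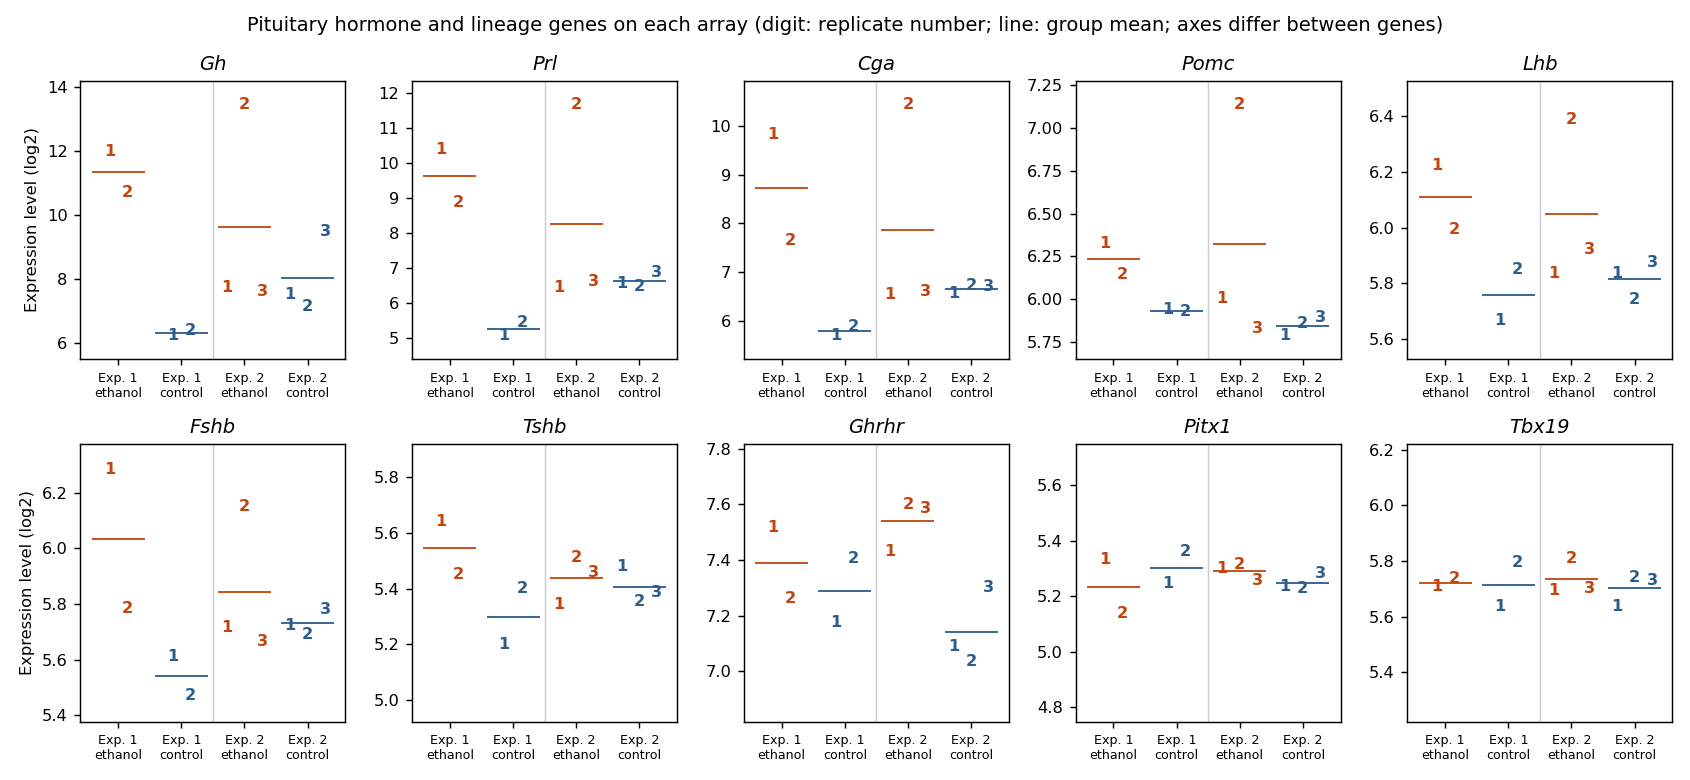
Expression level (log2, vertical axis, scaled separately for each gene) of the 10 genes on each array, by experiment and treatment; digits are replicate numbers and lines group means. Gh, Prl and Cga were high on both ethanol arrays of experiment 1 and on ethanol replicate 2 of experiment 2, and Gh was also raised on control replicate 3 of experiment 2 (9.48).

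One control array also carried a Gh excess, with a much smaller excess of Prl. On control replicate 3 of experiment 2, Gh was 2.15 log2 units (4.44-fold) above the mean of the other 2 controls. On the same array Prl was above the mean of those controls by 0.37, Ghrhr by 0.24, Cga by 0.07, Pomc by 0.07 and Lhb by 0.09. By its excess over both other controls Prl ranked 49 of the 21789 probe sets. This was the only control array with Prl above the 95th percentile of the silent receptors. Cga, Pomc and Lhb lay below that percentile, so their transcripts cannot be judged there. Of the 21789 probe sets, Gh alone was at least 2-fold above both other controls on this array. On the 3 ethanol arrays with high Gh, Prl and Cga were at least 2-fold above every control as well.

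Among the glycoprotein hormone subunits the common alpha subunit had the large difference in array signal and the beta subunits small ones. Lhb, Fshb and Tshb lay above the percentile of the silent receptors on 0 of 10 arrays, so their transcripts cannot be compared with those of Cga. Cga had 9.82 and 7.65 on the experiment 1 ethanol arrays, against 5.70 and 5.89 on the matching controls. Its experiment 2 values were 6.54, 10.44 and 6.60 on the ethanol arrays, against 6.57, 6.72 and 6.71 on the matching controls. The same 3 ethanol arrays as for Gh and Prl were high, and the 2 others were within 0.13 log2 units of the control mean. The excess was 16.2-fold and 3.62-fold on ethanol replicates 1 and 2 of experiment 1 and 13.7-fold on ethanol replicate 2 of experiment 2, again as folds of signal, since all 5 Cga controls lay below the percentile of the silent receptors. The fitted difference was 2.94 ± 1.04 in experiment 1 and 1.20 ± 0.85 in experiment 2 (SE), and -0.10 in experiment 2 without ethanol replicate 2.

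The array signals of the hormones differed by unequal steps between the arrays where they were high. Within experiment 1, ethanol replicate 1 exceeded ethanol replicate 2 by 1.30 log2 units for Gh, 1.50 for Prl and 2.17 for Cga. For Pomc the same step was 0.18, for Lhb 0.23 and for Fshb 0.50. Pomc, Lhb and Fshb lay below the percentile of the silent receptors on both of these arrays, so their steps do not compare amounts of transcript.

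**Figure D2:**
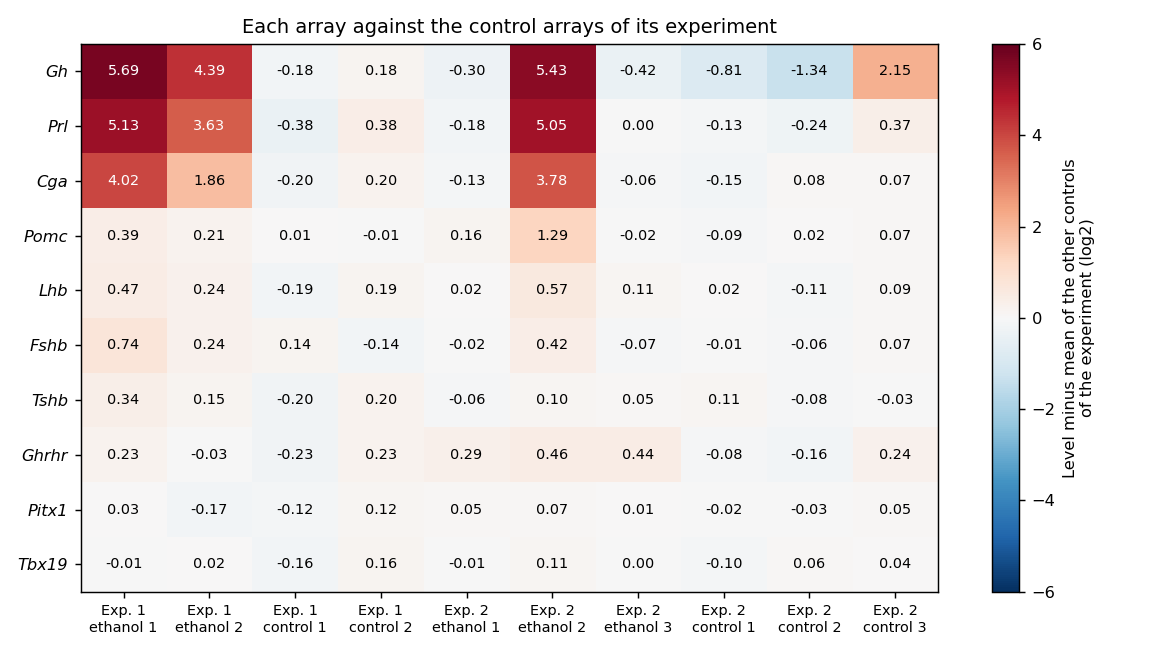
Level of each gene (rows) on each array (columns) minus the mean of the control arrays of its experiment, leaving out the array itself where it is a control (log2, colour and printed number). The large excesses of Gh, Prl and Cga (1.86 to 5.69) stand on 3 ethanol arrays. On control replicate 3 of experiment 2 stands a Gh excess of 2.15, beside 0.37 for Prl and 0.24 for Ghrhr.

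Lhb, the beta subunit of luteinizing hormone, had 6.22 and 5.99 on the experiment 1 ethanol arrays, against 5.66 and 5.85 on the matching controls. Its experiment 2 values were 5.84, 6.39 and 5.92 on the ethanol arrays, against 5.83, 5.74 and 5.88 on the controls. It was highest on the arrays where Cga was high, at a much smaller amplitude, and the groups overlapped in experiment 2. Fshb, the beta subunit of follicle-stimulating hormone, had 6.28 and 5.78 on the experiment 1 ethanol arrays, against 5.61 and 5.47 on the matching controls. It had 5.72, 6.15 and 5.66 on the experiment 2 ethanol arrays, against 5.72, 5.69 and 5.78 on the controls. Its excess was 0.74 on ethanol replicate 1 of the first experiment and 0.42 on replicate 2 of the second, and it overlapped the controls elsewhere in experiment 2. Tshb, the beta subunit of thyrotropin, had 5.64 and 5.45 on the experiment 1 ethanol arrays, against 5.20 and 5.40 on the matching controls. It had 5.34, 5.51 and 5.46 on the experiment 2 ethanol arrays, against 5.48, 5.36 and 5.39 on the controls, and the groups overlapped there. The differences were 0.35 ± 0.15 and 0.23 ± 0.12 for Lhb, 0.49 ± 0.17 and 0.11 ± 0.14 for Fshb, and 0.25 ± 0.09 and 0.03 ± 0.08 for Tshb in experiments 1 and 2 (SE). Without ethanol replicate 2 of experiment 2 they were 0.06 for Lhb, -0.04 for Fshb and -0.01 for Tshb in that experiment. When each array of experiment 1 was left out, the difference there ranged from 0.24 to 0.47 for Lhb, 0.24 to 0.74 for Fshb and 0.15 to 0.35 for Tshb.

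Pomc had its widest excess on 1 array, ethanol replicate 2 of experiment 2. It had 6.32 and 6.15 on the experiment 1 ethanol arrays, against 5.94 and 5.93 on the matching controls. It had 6.00, 7.14 and 5.83 on the experiment 2 ethanol arrays, against 5.78, 5.86 and 5.89 on the controls. Ethanol replicate 2 of experiment 2 stood 2.45-fold above the control mean, while ethanol replicate 1 of experiment 1, with a comparable excess of Gh, Prl and Cga, stood 1.31-fold above it. These too are folds of signal. All Pomc controls and that array of experiment 1 lay below the percentile of the silent receptors, so the 2 folds do not compare amounts of transcript. The difference was 0.30 ± 0.31 in experiment 1 and 0.48 ± 0.25 in experiment 2, and 0.07 in experiment 2 without ethanol replicate 2.

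Ghrhr, through which somatotrophs sense growth-hormone-releasing hormone, followed another pattern between the groups. It had 7.52 and 7.26 on the experiment 1 ethanol arrays, against 7.18 and 7.40 on the matching controls, which overlapped. It had 7.43, 7.60 and 7.58 on the experiment 2 ethanol arrays, against 7.09, 7.04 and 7.30 on the controls. All 3 ethanol arrays of experiment 2 were thus above all 3 controls, including ethanol replicates 1 and 3, on which Gh, Prl and Cga were not high. Within each group of each experiment, however, the array with the highest Ghrhr was also the one with the highest Gh. The ethanol difference of Ghrhr was 0.10 ± 0.11 in experiment 1 and 0.40 ± 0.09 in experiment 2 (SE), and 0.37 in experiment 2 without ethanol replicate 2.

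The 2 transcription factors differed by at most 0.07 log2 units in either experiment. Pitx1 had 5.33 and 5.14 on the experiment 1 ethanol arrays, against 5.24 and 5.36 on the matching controls. It had 5.30, 5.31 and 5.26 on the experiment 2 ethanol arrays, against 5.23, 5.23 and 5.28 on the controls. Tbx19 ranged from 5.63 to 5.81 over all 10 arrays, and its differences were 0.01 ± 0.07 and 0.03 ± 0.06 in experiments 1 and 2. For Pitx1 they were -0.07 ± 0.08 and 0.04 ± 0.06. On ethanol replicate 2 of experiment 2 both were above every control, Tbx19 at 5.81 against a highest control of 5.74, and on the experiment 1 ethanol arrays both lay below the higher control.

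**Figure D3:**
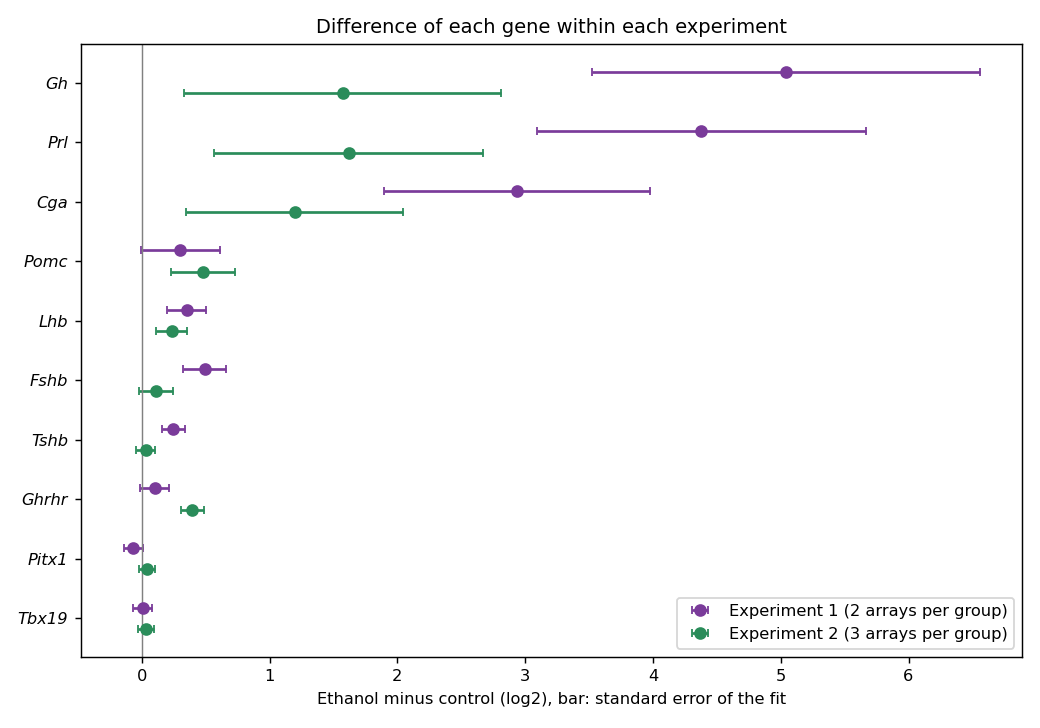
Ethanol minus control difference (log2, horizontal axis) of each gene in experiment 1 (upper point of each pair) and experiment 2 (lower point), with the standard error of the limma fit as bars. The differences of Gh, Prl and Cga are 2.94 to 5.04 in experiment 1 and 1.20 to 1.62 in experiment 2, and those of Pitx1 and Tbx19 lie between -0.07 and 0.04.

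Of the 10 genes, 3 (Gh, Prl and Cga) differed by at least 2-fold upward over both experiments, and they were the only 3 of the 21789 probe sets to do so (0.0138%). In experiment 1 the count was the same 3 genes, again 0.0138% of the probe sets. In experiment 2 it was these 3 among 5 probe sets (0.0229%). The median difference of the 10 genes was 0.28 over both experiments, 0.33 in experiment 1 and 0.31 in experiment 2, beside medians of -0.01, 0.00 and -0.01 over all tested probe sets. Without ethanol replicate 2 of experiment 2 the median of the 10 in that experiment was -0.01. In experiment 1 every ethanol array was above every control for 7 of the 10 genes and for 15.1% of all probe sets. In experiment 2 this held for 1 of the 10 (Ghrhr) and for 7.62% of all probe sets. In the fit over both experiments, limma with Benjamini-Hochberg adjustment called 0 of the 21789 probe sets at 0.05 (0%), these 10 included. With unadjusted p-values below 0.05, 7 of the 10 were higher and 0 lower, where 4.72% of all probe sets were higher and 7.68% lower. By an unmoderated linear model, adjusted in the same way, 0 probe sets were called. As the genes were chosen on this contrast, nothing is read from these counts.

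**Figure D4:**
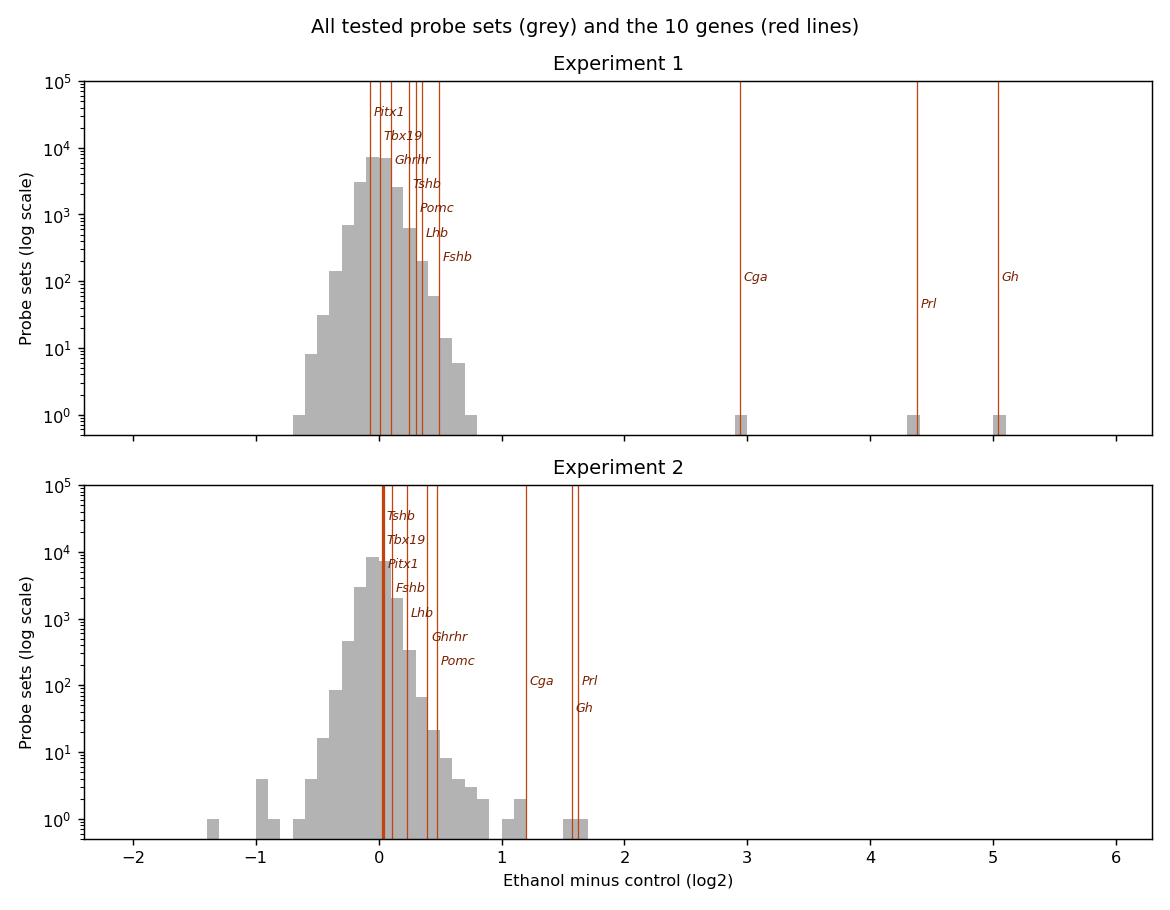
Histogram of the ethanol minus control difference (log2, horizontal axis) of the 21789 tested probe sets in each experiment (vertical axis, number of probe sets on a log scale), with a red line for each of the 10 genes. Cga, Prl and Gh stand apart from all other probe sets in experiment 1 and at the upper end in experiment 2.

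Counted array by array, Gh, Prl and Cga were the largest excesses on 3 ethanol arrays. On ethanol replicate 1 of experiment 1, 4 of the 21789 probe sets (0.0184%) were at least 2-fold above every control of the experiment, and the largest 3 were Gh, Prl and Cga. On ethanol replicate 2 of experiment 1 there were 19 (0.0872%), led by the same 3 genes. On ethanol replicate 2 of experiment 2 there were 4 (0.0184%), and they were Prl, Gh, Cga and Pomc. Ethanol replicates 1 and 3 of experiment 2 had 12 and 0 such probe sets, with none of the 10 genes among them. Ethanol replicate 1 of experiment 2 instead had lipocalins and odorant-binding proteins among its largest excesses, such as Obp1a, a secretory product of the nasal mucosa, at 10.06 against 5.20, 7.68 and 4.81 on the controls. The controls of experiment 1, each set against the other, had 0 and 2 probe sets at least 2-fold above it. Those of experiment 2, each set against the other controls, had 0, 18 and 1, the last being Gh on control replicate 3. At any size, 8 and 7 of the 10 genes were above every control on ethanol replicates 1 and 2 of experiment 1, where 33.1% and 32.9% of all probe sets were. In experiment 2 all 10 were above every control on ethanol replicate 2 (23.5% of all probe sets), 3 on ethanol replicate 1 (23.9%) and 2 on ethanol replicate 3 (25.7%). Control arrays reached such counts too. Against the other control, control replicates 1 and 2 of experiment 1 had 2 (56.5% of all probe sets) and 8 (43.5%). Against the other controls, control replicates 1, 2 and 3 of experiment 2 had 1 (35.9%), 2 (28.1%) and 7 (36.0%). Controls were compared with fewer arrays, which raises their shares.

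The array pattern of the hormones was then compared with that of all other named probe sets. Likeness was measured as Pearson's r, over the 10 arrays, with the average of the 3 hormone genes Gh, Prl and Cga, all centred within experiments. It is a description that rests mainly on the 3 arrays with high hormone levels. Of 108 named probe sets outside the 10 genes whose centred values spanned at least 1 log2 unit, 0 reached an r of 0.8. With no limit on the span, 87 of 21779 did. The nearest of those that could be named was the microRNA gene Mir669b (r = 0.70), at 7.48 and 7.54 on the experiment 1 ethanol arrays against 7.14 and 7.28 on the matching controls. In experiment 2 it had 7.28, 7.92 and 7.42 on the ethanol arrays against 7.24, 6.67 and 7.63 on the controls. The next were Hamp2 (0.54), a gene of the hepcidin family, Prp2 (0.44) and Phf11a (0.43). For Zfp600, Mir380, Sp140 and Scarna13 r lay between 0.00 and 0.05. The immediate-early genes Arc, Egr2 and Nr4a1, which neuronal activity induces, had an r of 0.20, 0.18 and 0.03, and the chemokine gene Ppbp had 0.24. Among the 10 genes themselves r was 0.96 for Lhb, 0.93 for Fshb, 0.87 for Pomc, 0.75 for Tshb, 0.53 for Ghrhr, 0.46 for Tbx19 and 0.12 for Pitx1. The spans of Lhb (0.72), Fshb (0.81), Tshb (0.44) and Ghrhr (0.56) were under 1 log2 unit, so their r compares with the 87 probe sets found at any span and not with the count of 0.

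Of the 10 genes, 5 lay on every array within the range of receptors that whole brain hardly expresses. The table holds no detection call, so the 1245 probe sets of olfactory, vomeronasal and bitter taste receptors were used as a stand-in for silent genes, and their 95th percentile was 6.75 to 7.04 on the 10 arrays. Ghrhr lay above that percentile on 10 of 10 arrays, Gh on 8, Prl on 4, Cga on 3 and Pomc on 1 (ethanol replicate 2 of experiment 2). Lhb, Fshb, Tshb, Pitx1 and Tbx19 lay above it on 0 of 10 arrays. Probe sets differ in their own background, and equal experiment means place the experiment 1 controls low for a gene with high ethanol arrays, so these counts are rough.

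Other genes of pituitary cells were taken from 4 lists, and over both experiments the widest difference among the 35 measured was -0.20. Several lay below the percentile of the silent receptors on every array, such as Lhx3 (at most 5.83), Nr5a1 (5.92), Foxl2 (5.33), Gnrhr (5.26) and Avpr1b (5.64). Others were high on every array, controls included, such as Neurod1 (10.29 to 10.88) and Drd2 (10.15 to 10.28). These lists therefore do not show whether other pituitary transcripts followed the hormones. Of 12 further lineage transcription factors measured, 7 were higher and 5 lower over both experiments, with a median of 0.02, and limma called 0 in either direction at an adjusted p of 0.05. Neurod1, a corticotroph and neuronal factor, differed by -0.20 ± 0.10 over both experiments and by -0.41 in experiment 1, and Isl1, a LIM homeobox factor of several neuroendocrine lineages, by -0.15 ± 0.06. Of 9 receptors, 5 were higher and 4 lower (median 0.05, 0 called), including Trhr, the receptor for thyrotropin-releasing hormone, at -0.10 ± 0.07 and Avpr1b, the corticotroph vasopressin receptor, at 0.10 ± 0.05. Of 9 genes of secretory granules and prohormone processing, which neurons share, 5 were higher and 4 lower (median 0.00, 0 called), and Scg2, a granule protein, differed by -0.07 ± 0.06.

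The 5 measured genes of the intermediate lobe and pars tuberalis were higher in 3 and lower in 2 (median 0.08, 0 called). Oacyl had 6.06 and 5.73 on the experiment 1 ethanol arrays, against 5.61 and 5.70 on the matching controls. It had 5.65, 6.06 and 5.79 on the experiment 2 ethanol arrays, against 5.74, 5.70 and 5.72 on the controls. It was highest on ethanol replicate 1 in the first experiment and on replicate 2 in the second, and its r with the hormones was 0.91 at a span of 0.45 log2 units. Oacyl lay below the percentile of the silent receptors on every array. Pax7, the melanotroph transcription factor, had 6.91 and 6.51 on the experiment 1 ethanol arrays, against 6.51 and 6.48 on the matching controls. In experiment 2 it had 6.66, 6.70 and 6.48 on the ethanol arrays, against 6.46, 6.68 and 6.65 on the controls, and the groups overlapped. Over both experiments Oacyl differed by 0.16 ± 0.08 and Pax7 by 0.10 ± 0.08, and the r of Pax7 with the hormones was 0.64. Mtnr1a, Eya3 and Dio2 did not share the pattern of Oacyl. Mtnr1a differed by 0.27 in experiment 1 and -0.06 in experiment 2 (r = 0.13 with the hormones). Eya3 differed by -0.22 and 0.00 (r = -0.68), and Dio2 by 0.05 and -0.07 (r = 0.23).

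The hypothalamic hormones that act on the gland were higher in 7 and lower in 2 of 9 (median 0.03, 0 called). Ghrh, the releasing hormone for growth hormone, differed by 0.07 ± 0.05 and was named with its values already known. Trh, thyrotropin-releasing hormone, differed by -0.15 ± 0.08, Th, the rate-limiting enzyme of dopamine synthesis, by -0.24 ± 0.10, and Gnrh1, gonadotropin-releasing hormone, by 0.12 ± 0.05. Of 12 receptors and response genes of the pituitary hormones, 8 were higher and 4 lower (median 0.01, 0 called). Stat5b, a transcription factor that growth hormone and prolactin receptors activate, differed by -0.07 ± 0.06, and Tshr, the thyrotropin receptor, by 0.06 ± 0.05.

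Markers of other tissues that a dissected brain can carry were compared on the same arrays. Pineal and photoreceptor genes were higher in 6 and lower in 3 of 9 (median 0.03), skeletal muscle genes higher in 6 and lower in 4 of 10 (0.02), and genes of peripheral nerve and sensory ganglia higher in 3 and lower in 1 of 4 (0.04). Both measured genes of red blood cells were higher (0.06). Olfactory mucosa genes were lower in 7 of 10 (-0.03), meningeal and fibroblast genes in 9 of 10 (-0.10) and whole-brain markers in 9 of 13 (-0.03). In each of these 7 lists limma called 0 genes at an adjusted p of 0.05, and with unadjusted p-values below 0.05 it found 1 higher pineal gene of 9, 1 higher muscle gene of 10, 3 lower meningeal genes of 10 and 3 lower whole-brain markers of 13, where 4.72% of all probe sets were higher and 7.68% lower. On the 3 ethanol arrays with high Gh, Prl and Cga the list medians relative to the control mean were 0.00, -0.02 and 0.06 for pineal genes and 0.05, -0.06 and -0.15 for meningeal genes. The log2 of the summed level of the 10 meningeal genes was 11.90 and 11.91 on the experiment 1 ethanol arrays, against 11.86 and 11.95 on the matching controls, and 11.74 to 11.81 on the experiment 2 ethanol arrays, against 12.00 to 12.04 on the matching controls. For the 10 olfactory mucosa genes it was 11.88 and 11.93 on the experiment 1 ethanol arrays, against 11.92 and 12.01, and 11.85 to 12.31 on those of experiment 2, against 11.88 to 12.23 on the controls. The part of such tissues in the hormone values was not tested.

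**Figure D5:**
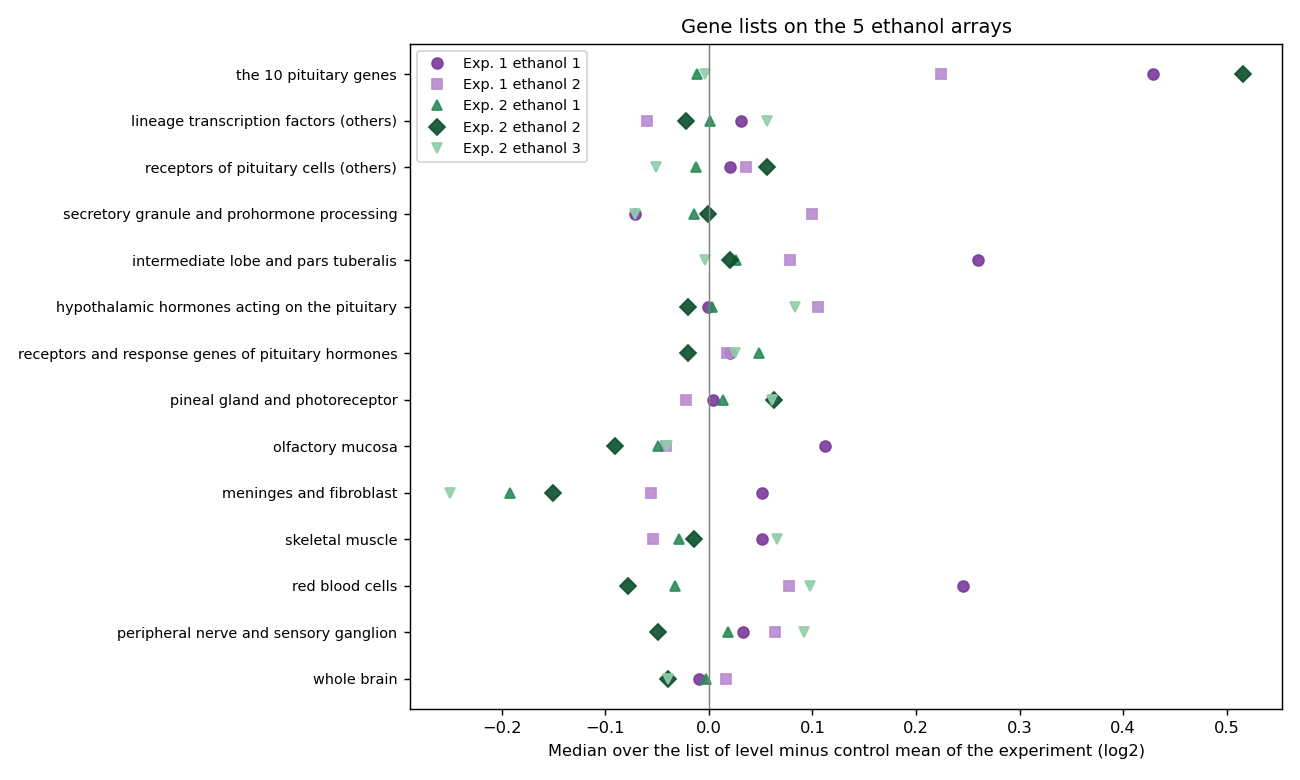
Median, over the measured genes of each list (rows), of the level on each ethanol array minus the control mean of its experiment (log2, horizontal axis); symbols are the 5 ethanol arrays. The 10 pituitary genes lie at 0.43, 0.22 and 0.52 on the 3 arrays with high hormones and at -0.01 and 0.00 on the 2 others.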

How the data were processed

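Whole-brain RNA pools were hybridised to 10 Affymetrix whole-transcript arrays, 5 ethanol and 5 control. The deposited table holds 1 log2 value per probe set and array (35556 probe sets, values from 4.27 to 15.4). The submitters' processing notes name Partek 6.6, and which background, normalization or batch step was run is not given there. Of the probe sets, 21789 carried a single symbol in the platform annotation and were tested. The values were used as deposited. Arrays give no read depth, and their number limits the precision. Whether pools shared litters is not in the labels, and the p-values measure only the spread between these pools.

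Linear models were fitted in limma 3.58.1 (R 4.3.3) with empirical Bayes moderation and Benjamini-Hochberg adjustment over the 21789 probe sets at 0.05. A model with a mean for each experiment and 1 ethanol term gave ethanol minus control over both experiments (7 residual degrees of freedom). Another, with a mean for each of the 4 groups of experiment and treatment, gave it in each experiment and the difference between experiments (6 residual degrees of freedom). The fitting was tested on simulated data. Replicate numbers were not treated as pairs in these models. The 10 genes and the gene lists were chosen with earlier results of these data known. Besides the 10, the text names the 12 genes with the highest likeness to the hormone pattern at a span of at least 1 log2 unit (predicted genes, clone names and chemoreceptors left out) and genes from among the 4 per list with the largest absolute difference; others are marked as named with their values known. A gene with several probe sets was represented by the one with the highest mean. Alternatives were array centring, quantile normalization, array weights, filters, separate fits, a replicate block, an unmoderated model and leaving out each array. Tables and figures were made with Python 3.11.15, pandas 2.3.3 and matplotlib 3.10.9.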

Additional observations from a re-analysis of the deposited data

Results flagged for a closer look

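None of the 10 pituitary genes was flagged, and groups of 2 and 3 arrays are too small for a check of single outlying arrays. For 7 other named genes, every ethanol array of experiment 2 moved in the opposite direction to every ethanol array of experiment 1. The difference between experiments (experiment 2 minus experiment 1) was 0.88 for Mir380, with ethanol differences of 0.58 in experiment 2 and -0.31 in experiment 1. It was 0.18 for Nr5a1 (0.13 and -0.05), 0.30 for Zbtb20 (0.18 and -0.13, another probe set of the gene having the opposite sign over both experiments), -0.19 for P2ry12 (-0.17 and 0.01) and -0.52 for Ppbp (-0.05 and 0.46). It was -0.49 for Slc6a13 (-0.29 and 0.19) and -0.34 for Trhr (-0.24 and 0.10). These genes were picked out by their signs and not by a test. In limma's fit of the difference between experiments, their adjusted p-values lay between 0.665 (Mir380) and 0.818 (P2ry12), and the smallest over all 21789 probe sets was 0.269.

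Among probe sets without a gene in the annotation, which no comparison used, 2 followed the hormone pattern with a span of at least 1 log2 unit. Probe set 10343505 (r = 0.86) had 7.01 and 5.89 on the experiment 1 ethanol arrays, against 5.51 and 5.78 on the matching controls. Its experiment 2 values were 5.83, 6.61 and 5.87 on the ethanol arrays, against 6.04, 5.98 and 5.94 on the controls. Probe set 10342164 (r = 0.83) had 8.43 and 7.87 on the experiment 1 ethanol arrays, against 7.46 and 7.63 on the matching controls. Its experiment 2 values were 7.82, 8.33 and 8.09 on the ethanol arrays, against 7.71, 7.34 and 7.79 on the controls. They were chosen from 1531 unnamed probe sets by this likeness, and the r is a description over 10 arrays.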

How the results depend on the processing

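The number of probe sets called by limma at an adjusted p of 0.05 was 0 in each of the 4 comparisons and ranged, when each array was left out, from 0 to 1 over both experiments, 0 to 235 in experiment 1, 0 to 1 in experiment 2 and 0 to 94 for the difference between experiments. The highest counts for experiment 1 and for the difference arose without ethanol replicate 1 of experiment 1. Like every fit without an array of experiment 1, that fit has a lone array in a group, assumed to vary like the other groups. Why its counts were higher than those of the other such fits was not tested. With experiment 1 fitted alone 1 probe set was called (Gh, adjusted p = 0.0163), and without ethanol replicate 2 of experiment 2 also 1 in experiment 1 (Prl, adjusted p = 0.00282) and 1 for the difference between experiments (Prl, -4.47, adjusted p = 0.0444). Array weights called 2 in experiment 2. Without control replicate 3 of experiment 2 the difference between experiments called 3. Without ethanol replicate 2 of experiment 2, the differences in that experiment reversed to -0.36 for Gh, -0.0945 for Prl and -0.10 for Cga, and over all arrays left out in turn the highest were 2.57, 2.52 and 1.86. The median of the 10 genes ranged from 0.20 to 0.33 over both experiments, 0.22 to 0.43 in experiment 1 and -0.0052 to 0.39 in experiment 2 when each array was left out. A filter at the 25th percentile of mean level left 6 of the 10 genes and gave medians of 1.15, 1.64 and 0.84. It dropped Fshb, Tshb, Pitx1 and Tbx19, which had the smallest differences of the 10 over both experiments. The mean level it uses includes the ethanol arrays. The number of other genes like the hormones was 1 by Spearman's rho and 0 to 1 when each array was left out, against 0. Quantile normalization moved the median of the pituitary receptors to 0.00618 and of the pineal genes to -0.00626, and array centring moved that of the hormone response genes to -0.0209. For these the cause was not tested. With the replicate number as a block, 0 probe sets were called in each comparison. In their deviations from the group means, same-numbered arrays correlated between -0.15 and 0.23. Such deviations are tied to each other in groups of 2 or 3 arrays, so these values cannot show whether the numbers mark pairs. Fits of each experiment alone give no value over both or for the difference between them.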
